A study of Danio rerio with 82 samples.

Results

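Stage IV oocytes of the zebrafish (Danio rerio) were set against stage III oocytes by poly(A) RNA-seq, 1 library per stage. Every locus with a mean of at least 1 FPKM (a level adjusted for transcript length and library size, from fragments per kilobase) over the 2 libraries was compared, which kept 13764 of 28405 loci. The 14641 loci under that mean are not described. Per the labels, the stage IV sample held oocytes in metaphase I and the stage III sample oocytes in prophase I, both picked from ovaries of adult wild-type females of the Tu strain. No treatment and no allele is given for either group, and their exact age and the number of females behind each library are not given in the sources used here. Oocytes were sorted under tweezers by their appearance, and the follicle cells around them were taken off as far as this was possible. Libraries of stage I and stage II oocytes, made in the same way, serve as context. The series as a whole holds 82 samples of gametes, embryos and muscle, of which only the 4 libraries of staged oocytes were used.

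A fish oocyte grows for a long time in prophase of the first meiotic division, taking up yolk and storing maternal mRNA for the embryo. A progestin made by the follicle cells then releases it from arrest: cyclin B and its kinase become active, the nuclear envelope breaks down and a spindle forms. Transcription is low in this period, and the fate of a stored mRNA depends on its poly(A) tail, which is lengthened for some mRNAs and shortened for others. The libraries were made from RNA bound by oligo(dT), so a shorter tail and less RNA cannot be told apart in these values.

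Depth is known only by a lower limit. The sum of fragment equivalents, the number of fragments that would give the deposited confidence bounds by counting alone, was 6201816 in stage IV and 6572489 in stage III. At least 1 FPKM was listed for 11100 loci in stage IV and 14536 in stage III, at least 10 FPKM for 5825 loci in stage IV and 7972 in stage III, and at least 100 FPKM for 1458 loci in stage IV and 1214 in stage III. Exact zeros were listed for 11242 loci in stage IV and 7638 in stage III. Transcripts encoded by the mitochondrial genome took 8.78% of all FPKM in stage IV and 9.14% in stage III, and transcripts of cytosolic ribosomal proteins took 6.10% in stage IV and 11.8% in stage III.

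Oocyte markers were present in both libraries. The zona pellucida gene zp3b had 70.8 FPKM in stage IV and 1164 FPKM in stage III, and buc, the organiser of the Balbiani body, had 118 FPKM in stage IV and 728 FPKM in stage III. The germ cell helicase vasa had 57.6 FPKM in stage IV and 57.3 FPKM in stage III. The growth factor gdf9 had 8.99 FPKM in stage IV and 13.4 FPKM in stage III, and the transcription factor nobox had 4.28 FPKM in stage IV and 8.21 FPKM in stage III. The transcription factor figla was listed at 0 in all 4 libraries at both of its loci.

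By a difference of at least 1 between the log2(FPKM + 1) values, here called the 2-fold rule, 2346 loci were higher in stage IV (17.0% of the loci compared) and 6401 were lower (46.5%), while 5017 lay between. The deposited bounds of both libraries did not overlap for 2288 of the higher loci (16.6% of those compared) and 6230 of the lower loci (45.3%). A 4-fold rule left 715 higher loci (5.19%) and 3373 lower loci (24.5%), and 41 loci were higher and 366 lower by 16-fold. The median difference over all loci was -0.83, with an interquartile range of -1.98 to 0.52. The Pearson correlation of log2(FPKM + 1) across loci was 0.69. Loci are not independent replicates, and with 1 library a side no test, standard error or p-value can be given for any gene. Sampling 1 library per stage also means that a difference between stages and a difference between the pools of oocytes cannot be told apart.

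FPKM values are shares of a library, so the split between higher and lower rests on the scale. Median-of-ratios scaling, which divides each library by the median ratio of its loci, moved the median difference by 0.80 to -0.03. It gave 4133 higher and 4272 lower loci, so that 50.8% of the calls were lower against 73.2% on the FPKM scale. With 2 libraries this scaling brings the median near 0 by construction, so the near-even split was largely set in advance. It cannot show which scale is right. The shift is smaller than the 2-fold rule, so a locus called lower keeps its sign under that scaling. Below, a group of genes is therefore read against the median of all loci, -0.83, and a list or family is said to lie above or below it only where its median kept that side under each alternative tried. For the families within lists, these alternatives were added after seeing the data. Counts of higher and lower members are read beside the shares over all loci, 17.0% and 46.5%.

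**Figure D1:**
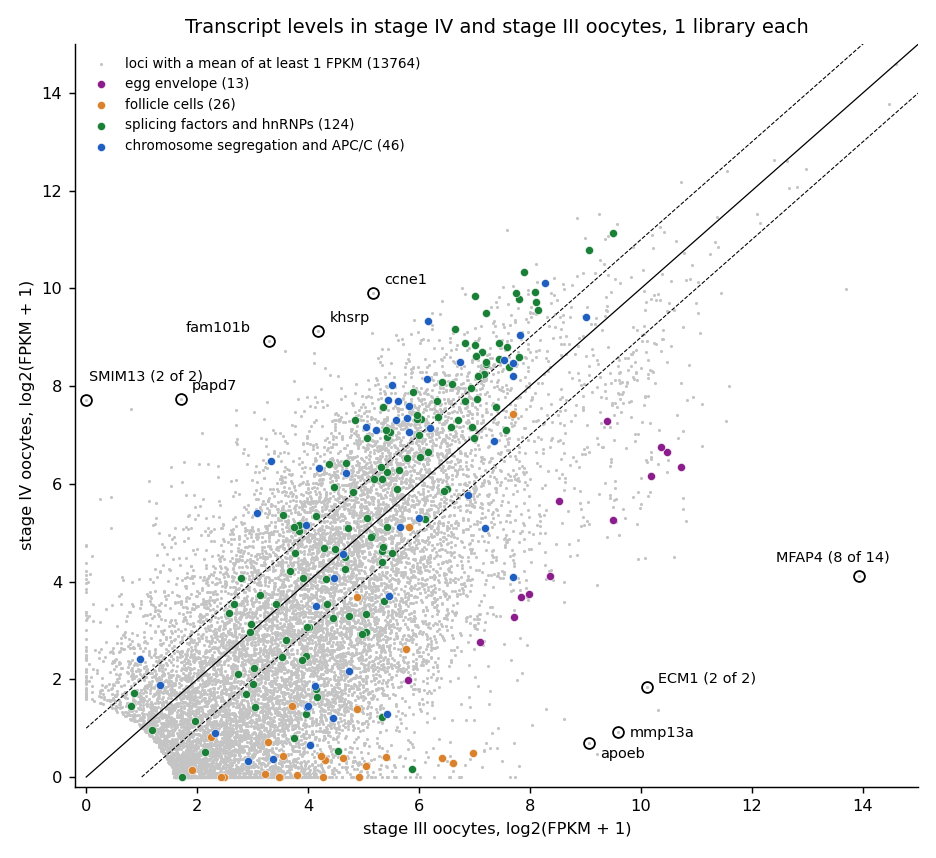
Level of each locus in stage IV oocytes (vertical) and stage III oocytes (horizontal), both as log2(FPKM + 1), with 1 library per stage. The solid line marks equal levels, the dashed lines mark 2-fold differences, colours mark members of 4 gene lists and open circles mark loci named in the text: all 13 egg envelope genes lie below the lower dashed line.

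The locus furthest up was SMIM13 (2 of 2), a small membrane protein of little known function on chromosome 19, at bases 4289432 to 4295309 of danRer7, with 210 FPKM in stage IV and a listing at 0 in stage III. Its values in the earlier libraries were 16.6 FPKM in stage I and 49.7 FPKM in stage II, so only the stage III library lacks it. A locus of rrm2, a subunit of ribonucleotide reductase, on chromosome 20 at bases 29518377 to 29525282, had 183 FPKM in stage IV (bounds 173 to 193) and 0.747 FPKM in stage III (bounds 0 to 1.55). This locus had 49.1 FPKM in stage I and 28.2 FPKM in stage II, so stage III held its lowest value. A second locus with the symbol rrm2, on chromosome 19, had 179 FPKM in stage IV and 97.9 FPKM in stage III. How reads were shared between such copies is not given, so the values of single copies are uncertain.

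Next came papd7, a noncanonical poly(A) polymerase on chromosome 19 at bases 28290859 to 28317020. It had 211 FPKM in stage IV (bounds 200 to 221) and 2.26 FPKM in stage III (bounds 1.70 to 2.81), a 93.2-fold difference that the bounds place between 71.3-fold and 130-fold. The AU-rich element binding protein khsrp, on chromosome 1, had 555 FPKM in stage IV and 17.1 FPKM in stage III, 32.4-fold apart (28.3 to 37.3 over the bounds). Cyclin E1, ccne1, which pairs with Cdk2 in replicating cells, lies on chromosome 7 at bases 47629355 to 47639396. It had 953 FPKM in stage IV (bounds 917 to 988) and 34.9 FPKM in stage III (bounds 31.5 to 38.4), 27.3-fold apart. These are a tail enzyme, an RNA binding protein and a cyclin, each with bounds far apart in the 2 libraries.

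The other loci of the 15 with the largest positive difference were mixed in kind. The filamin regulator fam101b had 481 FPKM in stage IV and 8.82 FPKM in stage III, and the membrane serine protease tmprss4a had 420 FPKM in stage IV and 11.0 FPKM in stage III. The mTORC1 inhibitor ddit4 had 410 FPKM in stage IV and 16.3 FPKM in stage III, after 78.1 FPKM in stage I and 58.5 FPKM in stage II. The endoplasmic reticulum protein reep2 had 182 FPKM in stage IV and 5.53 FPKM in stage III. Several were less certain. The tubulin deglutamylase agtpbp1 had 130 FPKM in stage IV but bounds of 35.2 to 226, against 3.23 FPKM with bounds of 0 to 33.8 in stage III. One locus of wdhd1, a replication factor, had 85.9 FPKM in stage IV and 2.41 FPKM in stage III inside a larger locus of the same name with 165 FPKM in stage IV and 47.7 FPKM in stage III. The activin receptor ACVR2B (1 of 2) had 146 FPKM in stage IV and 5.54 FPKM in stage III, the aminotransferase ccbl2 had 80.4 FPKM in stage IV and 1.89 FPKM in stage III, and the ligand tnfsf10l4 had 49.4 FPKM in stage IV and 1.20 FPKM in stage III. GOLT1A, a Golgi transport protein, had 25.3 FPKM in stage IV and was listed at 0 in stage III.

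Among the 15 loci furthest down, products that cells secrete or carry on their surface led. MFAP4 (8 of 14), one of a cluster of microfibril-associated protein genes on chromosome 1, had 16.3 FPKM in stage IV (bounds 13.8 to 18.7) and 15587 FPKM in stage III (bounds 15509 to 15665), 959-fold lower. It was the third most abundant locus of the stage III library, and it had 2286 FPKM in stage I and 1434 FPKM in stage II. A neighbouring copy, MFAP4 (12 of 14), had 1.57 FPKM in stage IV and 1264 FPKM in stage III. The collagenase mmp13a had 0.890 FPKM in stage IV, against 771 FPKM in stage III, with 57.6 FPKM in stage I and 51.2 FPKM in stage II. The apolipoprotein gene apoeb had 0.621 FPKM in stage IV and 531 FPKM in stage III, and ECM1 (2 of 2), extracellular matrix protein 1, had 2.59 FPKM in stage IV and 1104 FPKM in stage III. The copies of MFAP4 resemble each other, so the division of reads among them is uncertain.

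The remaining loci of that group followed the same course. The selenium carrier sepp1a had 1.27 FPKM in stage IV and 391 FPKM in stage III. The connexin cx34.5, a gap junction protein, had 0.623 FPKM in stage IV and 208 FPKM in stage III, the sialic acid hydroxylase cmah had 0.164 FPKM in stage IV and 223 FPKM in stage III, and the class I histocompatibility gene mhc1uba had 0.153 FPKM in stage IV and 139 FPKM in stage III. The stress gene nupr1 had 1.08 FPKM in stage IV and 262 FPKM in stage III, and CSMD3 (3 of 3) had 1.61 FPKM in stage IV and 311 FPKM in stage III. In each of these 6 loci the stage III value was also the highest of the 4 libraries. The pattern differs for SMIM4, which was listed at 0 in stage IV with 108 FPKM in stage III, and had 102 FPKM in stage I and 127 FPKM in stage II. Lower values of the same size were found for rpz5, with 0.438 FPKM in stage IV and 143 FPKM in stage III, for the S100 protein icn, with 0.458 FPKM in stage IV and 143 FPKM in stage III, and for grn1, a granulin that overlaps another locus, at an upper bound of 0.190 FPKM in stage IV and 106 FPKM in stage III.

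Markers of other cell types moved with these loci. Of 26 measured follicle cell genes, 24 were lower in stage IV, 2 lay between and none was higher. At least 1 FPKM was listed for 6 of the 35 found in stage IV and for 27 in stage III. Most therefore met the mean through stage III, which leaves little room for a call other than lower. The 35 found summed to 229 FPKM in stage IV and 950 FPKM in stage III. In the earlier libraries the sum was 576 FPKM in stage I and 483 FPKM in stage II. The steroid enzyme hsd3b1 had 0.408 FPKM in stage IV and 125 FPKM in stage III, the steroid regulator nr5a1a had 0.225 FPKM in stage IV and 97.2 FPKM in stage III, and inhibin alpha, inha, had 0.305 FPKM in stage IV and 84.5 FPKM in stage III. Of the 35 follicle cell genes found in the tables, 12 were listed at 0 in stage IV, among them both gonadotropin receptors, lhcgr and fshr, and star, and 1 was listed at 0 in stage III. Most of what remained in stage IV was cyp11a1, the side chain cleavage enzyme, with 170 FPKM in stage IV and 205 FPKM in stage III, and cyp17a1, with 33.8 FPKM in stage IV and 55.4 FPKM in stage III.

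Measured genes of the other marker lists were mostly lower as well. Of 20 measured genes of stroma, smooth muscle and collagen 17 were lower. The 29 found summed to 48.2 FPKM in stage IV and 517 FPKM in stage III. Of 23 blood and vessel genes 21 were lower. The 31 found summed to 59.9 FPKM in stage IV and 291 FPKM in stage III. Of 7 measured liver plasma protein genes 6 were lower, and 30 more were under the mean. The 37 found summed to 8.67 FPKM in stage IV and 609 FPKM in stage III, where apoeb alone held 531 FPKM. With no filter the liver list had 7 lower genes, 1 higher and a median of -0.11, against -0.063 for all loci. At least 1 FPKM in stage IV was listed for 5 stroma, 8 blood and vessel and 3 liver genes. The mean was thus met mostly through stage III. Genes induced within minutes of a stimulus numbered 42 measured, of which 4 were higher and 35 lower. The 54 found summed to 2061 FPKM in stage IV and 2113 FPKM in stage III. At least 1 FPKM was listed for 17 of them in stage IV and for 44 in stage III, so this mean too was met mostly through stage III. Among them fos had 0.861 FPKM in stage IV and 158 FPKM in stage III. Among epithelial genes, 10 of 13 were lower, chiefly keratins and annexins. Of the 25 found, 5 had at least 1 FPKM in stage IV and 15 in stage III, so the same limit holds. Yet the 3 junction genes that remained of the 13 were abundant. The adhesion molecule epcam had 2779 FPKM in stage IV and 462 FPKM in stage III, cdh1 had 330 FPKM in stage IV and 138 FPKM in stage III, and the claudin cldnd had 5441 FPKM in stage IV and 2979 FPKM in stage III. In a pooled sample, fewer cells of a type and less RNA per cell cannot be told apart. The part that other cells of the samples had in the lower loci was not tested.

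Without the loci whose stage III level was 2-fold or more above that of stage II, there were 2317 higher and 5276 lower loci. The median was then -0.62. Without the marker genes there were 2339 higher and 6288 lower loci. These genes are few beside the 13764 loci compared, so their removal cannot show what part other cells had in the lower loci. The difference between stage III and stage II shares the stage III library with the one described here. There, 1335 of 14412 loci (9.26%) were higher and 1054 (7.31%) were lower, while between stage II and stage I 384 of 14060 loci (2.73%) were higher and 480 (3.41%) were lower. For the follicle cell list, 13 genes were not 2-fold above their stage II level in stage III, and 11 of these were lower in stage IV.

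Over the 44 gene lists, medians ran from -4.17 for the egg envelope to 0.66 for chromosome segregation. The sign of a list's median relative to all loci was the same under each alternative in 25 of the 44 lists, and the sign of the median itself in 22.

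**Figure D2:**
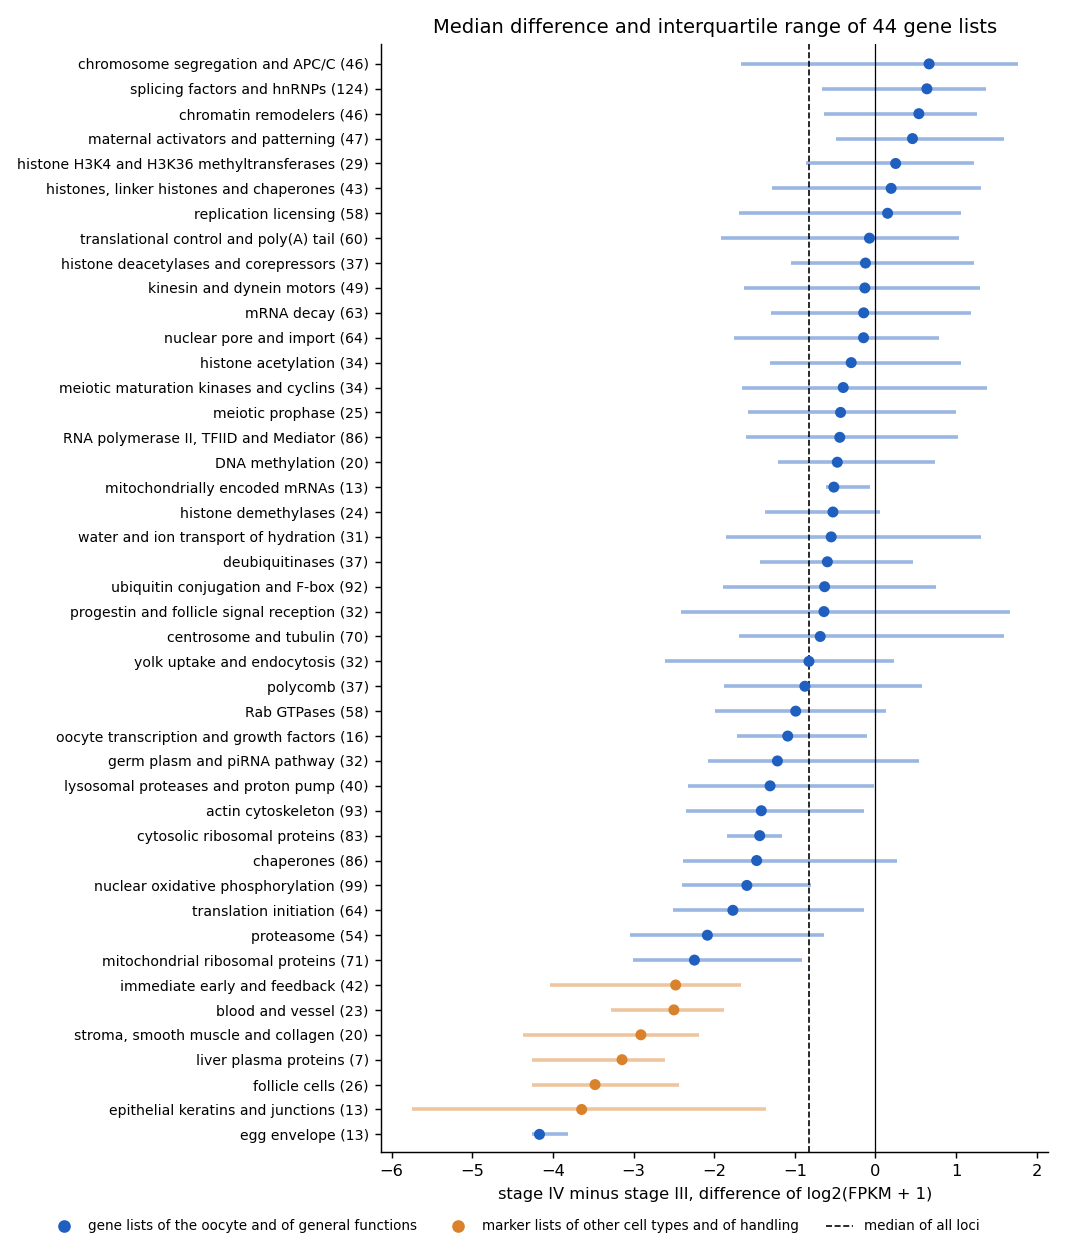
Median difference (points) and interquartile range (bars) of log2(FPKM + 1), stage IV minus stage III, for 44 gene lists, with the number of measured members in brackets; the dashed line is the median of all loci, -0.83, and the solid line is no difference. Marker lists (orange) and the egg envelope lie lowest, and chromosome segregation, splicing factors, chromatin remodelers and maternal activators lie highest.

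The kinases and cyclins that drive meiotic maturation split evenly. Of 34 measured members 13 were higher, 13 were lower and 8 lay between, against 17.0% higher and 46.5% lower over all loci, with a median of -0.40 whose place relative to all loci was not stable under the alternatives. Cyclins B1, B2 and A2 were higher and cyclin B3 was lower. Cyclin B1, ccnb1, the activating partner of Cdk1, had 2942 FPKM in stage IV (bounds 2860 to 3025) and 608 FPKM in stage III (bounds 583 to 633), 4.84-fold apart. Its level was 1742 FPKM in stage I and 864 FPKM in stage II, so stage III held the lowest value of the 4. ccnb2 had 2095 FPKM in stage IV and 506 FPKM in stage III. Cyclin A2, ccna2, had 278 FPKM in stage IV and 75.3 FPKM in stage III.

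The kinases of entry into M phase went with these cyclins, but not Cdk1 itself. plk1, the polo kinase, had 2544 FPKM in stage IV and 761 FPKM in stage III, a 3.34-fold difference, although another locus overlaps it. The Aurora kinases aurka, with 712 FPKM in stage IV and 274 FPKM in stage III, and aurkb, with 1011 FPKM in stage IV and 393 FPKM in stage III, were both higher. Greatwall, mastl, which holds back the phosphatase that opposes Cdk1, had 175 FPKM in stage IV and 61.6 FPKM in stage III. By contrast cdk1 had 29.8 FPKM in stage IV (bounds 26.8 to 32.7) and 124 FPKM in stage III (bounds 118 to 130), 4.16-fold lower, while cdk2 had 182 FPKM in stage IV and 68.7 FPKM in stage III. The inhibitory kinases of Cdk1 also parted. wee2, the form found in oocytes, had 480 FPKM in stage IV and 92.9 FPKM in stage III, and pkmyt1 had 1.30 FPKM in stage IV and 15.4 FPKM in stage III.

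The genes described here of the Mos pathway, which holds the egg in arrest, were lower. mos had 31.4 FPKM in stage IV (bounds 28.0 to 34.7) and 252 FPKM in stage III (bounds 243 to 262), 8.05-fold lower, and its level had been 464 FPKM in stage I and 261 FPKM in stage II. The kinase mapk3 had 17.1 FPKM in stage IV and 86.3 FPKM in stage III, and the downstream kinase rps6ka1 had 2.03 FPKM in stage IV and 19.0 FPKM in stage III. Also lower were the Cdk subunit cks1b, with 17.7 FPKM in stage IV and 92.5 FPKM in stage III, and cyclin B3, ccnb3, with 19.9 FPKM in stage IV and 61.4 FPKM in stage III.

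Genes of chromosome segregation stood above the median of all loci under each alternative: of 46 measured, 21 were higher, 14 lower and 11 between, with a median of 0.66. The highest was fbxo43, Emi2, an inhibitor of the anaphase-promoting complex known from metaphase arrest of eggs, with 641 FPKM in stage IV (bounds 616 to 666) and 70.9 FPKM in stage III (bounds 64.9 to 76.8), 9.05-fold apart. Its relative fbxo5, Emi1, went the other way, with 16.2 FPKM in stage IV and 207 FPKM in stage III, 12.8-fold lower. The activators of the complex were likewise opposed. cdc20, its activator in M phase, had 1100 FPKM in stage IV and 306 FPKM in stage III, and fzr1, its activator outside M phase, had 1.45 FPKM in stage IV and 41.9 FPKM in stage III. Of the 13 subunits of the complex 1 was higher and 6 were lower, a share of 46.2% like that of all loci, and among the lower were anapc2, with 0.566 FPKM in stage IV and 15.3 FPKM in stage III, and anapc4, with 1.32 FPKM in stage IV and 20.9 FPKM in stage III.

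Separase, espl1, which cuts cohesin at anaphase, had 261 FPKM in stage IV and 44.6 FPKM in stage III. The core cohesin genes smc3 and smc1al were higher, with smc3 at 205 FPKM in stage IV and 48.2 FPKM in stage III and smc1al at 193 FPKM in stage IV and 55.6 FPKM in stage III. So were the measured stromal antigen subunits of mitotic cohesin: stag1b had 143 FPKM in stage IV and 32.0 FPKM in stage III, stag2a had 41.0 FPKM in stage IV and 7.46 FPKM in stage III, and stag2b had 87.4 FPKM in stage IV and 9.12 FPKM in stage III, 9.59-fold apart. The kleisin rad21a had 78.9 FPKM in stage IV and 17.2 FPKM in stage III at one locus, and 22.8 FPKM in stage IV and 14.2 FPKM in stage III at another. Of the meiotic forms, STAG3 and rad21l1 were lower, and smc1b, rec8a and rec8b had a mean under 1 FPKM. STAG3 had 0.293 FPKM in stage IV (bounds 0 to 0.631) and 9.32 FPKM in stage III (bounds 7.37 to 11.3), and rad21l1 had 2.65 FPKM in stage IV and 16.4 FPKM in stage III. The kinetochore motor cenpe, with 210 FPKM in stage IV and 42.7 FPKM in stage III, and the chromosomal passenger birc5a, with 283 FPKM in stage IV and 69.2 FPKM in stage III, were higher.

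**Figure D3:**
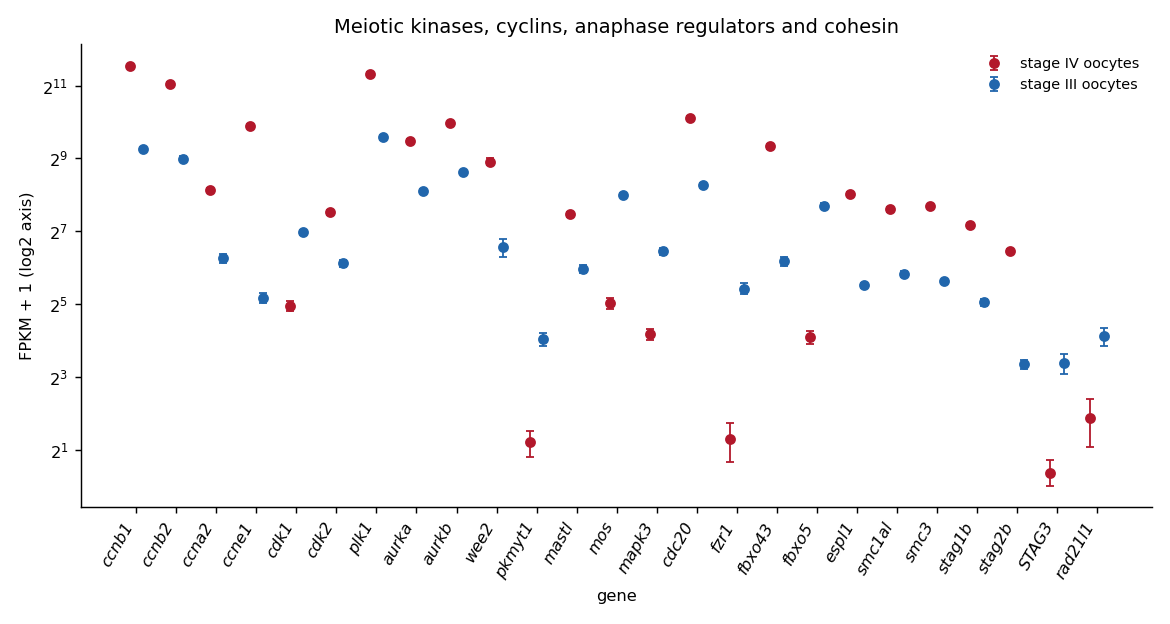
FPKM + 1 on a log2 axis for 25 genes of meiotic kinases, cyclins, anaphase regulators and cohesin, with stage IV oocytes (red) left of stage III oocytes (blue) and bars for the deposited confidence bounds of the single libraries. The 4 cyclins plotted, plk1, Aurora kinases, cdc20, fbxo43, espl1, smc1al, smc3, stag1b and stag2b are higher in stage IV, and cdk1, mos, mapk3, fzr1, fbxo5, STAG3 and rad21l1 are lower.

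Of 25 genes of meiotic prophase, the recombination and synapsis phase that precedes growth, 6 were higher and 11 lower, and the list median of -0.43 changed sign under some alternatives. It stayed above the median of all loci under each alternative, by as little as 0.023 with no filter. mnd1, a partner in strand exchange, had 1.36 FPKM in stage IV and 47.0 FPKM in stage III. The nuclear envelope protein SUN1 (2 of 2) had 655 FPKM in stage IV and 59.3 FPKM in stage III, and the synaptonemal protein sycp3 had 14.4 FPKM in stage IV and 4.01 FPKM in stage III.

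Genes that control translation and the poly(A) tail also moved both ways, with 16 of 60 higher and 21 lower and no stable direction for the list. Besides papd7 and khsrp, the germ cell RNA binding protein dazl had 432 FPKM in stage IV (bounds 415 to 449) and 42.7 FPKM in stage III (bounds 38.4 to 46.9), 10.1-fold apart. btg4, an adaptor of the deadenylase complex that acts on maternal mRNA in mouse, had 1454 FPKM in stage IV and 274 FPKM in stage III. ilf2 had 551 FPKM in stage IV and 116 FPKM in stage III. The furthest down was pabpc1l, the embryonic poly(A) binding protein, with 6.20 FPKM in stage IV (bounds 4.96 to 7.44) and 225 FPKM in stage III (bounds 216 to 235), 36.3-fold lower. The cleavage and polyadenylation subunits cpsf1, with 1.52 FPKM in stage IV and 22.2 FPKM in stage III, and cpsf3, with 6.02 FPKM in stage IV and 55.2 FPKM in stage III, were also lower. cpeb1b, a reader of the cytoplasmic polyadenylation element, had 154 FPKM in stage IV and 427 FPKM in stage III.

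Of 63 genes of mRNA decay 17 were higher (27.0%) and 21 lower (33.3%), and the list kept no side of the median of all loci under the alternatives. The CCR4-NOT deadenylase complex had 3 of 10 genes higher and 3 lower. Of its catalytic subunits, cnot8, with 526 FPKM in stage IV and 47.0 FPKM in stage III, and cnot7, with 54.8 FPKM in stage IV and 7.76 FPKM in stage III, were higher, and cnot6, with 23.7 FPKM in stage IV and 65.9 FPKM in stage III, was lower, while the copy CNOT6 (2 of 2) had 42.9 FPKM in stage IV and 14.2 FPKM in stage III. pan3, of another deadenylase, had 174 FPKM in stage IV and 24.5 FPKM in stage III, a 7.08-fold difference. Among 5 Argonaute and TNRC6 genes, which carry out silencing by small RNAs, 4 were higher and 1 lay between: AGO1 had 35.4 FPKM in stage IV and 1.35 FPKM in stage III, ago3b had 74.3 FPKM in stage IV and 7.27 FPKM in stage III, and ago4 had 251 FPKM in stage IV and 46.3 FPKM in stage III. The decay factors furthest down were zfp36l1b, with 0.562 FPKM in stage IV and 33.3 FPKM in stage III, and upf3b, of nonsense-mediated decay, with 0.513 FPKM in stage IV and 26.8 FPKM in stage III. The CCR4-NOT gene cnot3a had 0.419 FPKM in stage IV and 21.8 FPKM in stage III.

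Maternal activators of the embryonic genome and patterning factors stood above the median of all loci under each alternative, with 14 of 47 higher, 10 lower and a median of 0.46. pou5f3, one of the factors that start zygotic transcription in zebrafish, had 203 FPKM in stage IV (bounds 198 to 209) and 8.61 FPKM in stage III (bounds 7.41 to 9.81), 23.6-fold apart. Its partner nanog had 638 FPKM in stage IV and 211 FPKM in stage III. eomesa had 217 FPKM in stage IV and 16.4 FPKM in stage III, the BMP effector smad5 had 492 FPKM in stage IV and 70.1 FPKM in stage III, and one locus of nr6a1a had 81.7 FPKM in stage IV (bounds 60.1 to 103) and 4.18 FPKM in stage III. The largest difference of the list was that of runx2b, which had 65.2 FPKM in stage IV and 1.18 FPKM in stage III, with bounds from 0 to 156 in stage IV that include the stage III value. The lowest were low throughout, such as gsk3b with 0.274 FPKM in stage IV and 5.31 FPKM in stage III and mych with 1.44 FPKM in stage IV and 10.9 FPKM in stage III.

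All 13 egg envelope genes were lower in stage IV, by a median of -4.17, and none was listed at 0 in either library. Together they held 656 FPKM in stage IV and 8552 FPKM in stage III, after 13800 FPKM in stage I and 9353 FPKM in stage II. zp2.1 had 5.79 FPKM in stage IV and 136 FPKM in stage III, zp3a.1 had 80.7 FPKM in stage IV and 1690 FPKM in stage III, and the one nearest to equal levels, zpcx, had 154 FPKM in stage IV and 672 FPKM in stage III. None of the 13 was 2-fold above its stage II level in stage III. Members of this family resemble each other in sequence, so single values share reads in an unknown way. Of 16 oocyte transcription and growth factors 1 was higher (6.25%, against 17.0% of all loci) and 8 were lower (50.0%, near the 46.5% of all loci). Their median of -1.09 lay below that of all loci under each alternative. With median-of-ratios scaling the gap was small, at -0.080 against -0.033. The 22 found summed to 5409 FPKM in stage IV and 4602 FPKM in stage III. bmp15 had 13.1 FPKM in stage IV and 120 FPKM in stage III, and zar1, an RNA binding protein needed in early oocytes, had 21.7 FPKM in stage IV and 160 FPKM in stage III after 836 FPKM in stage I. zar1l stood at 987 FPKM in stage IV and 1062 FPKM in stage III.

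Germ plasm and piRNA genes, which specify and protect the germ line, had 6 of 32 higher (18.8%) and 17 lower (53.1%), near the shares of all loci, with a median of -1.22. rbpms2b, which binds Buc in the Balbiani body, had 51.4 FPKM in stage IV and 696 FPKM in stage III, 13.5-fold lower, beside the 6.15-fold lower value of buc. mov10b.1 had 0.0580 FPKM in stage IV and 16.1 FPKM in stage III, and the piRNA methyltransferase henmt1 had 2.56 FPKM in stage IV with bounds of 0 to 6.98, against 48.0 FPKM in stage III. Besides dazl, the higher members were led by hook2, at 548 FPKM in stage IV and 61.8 FPKM in stage III, and GTSF1, at 955 FPKM in stage IV and 333 FPKM in stage III.

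**Figure D4:**
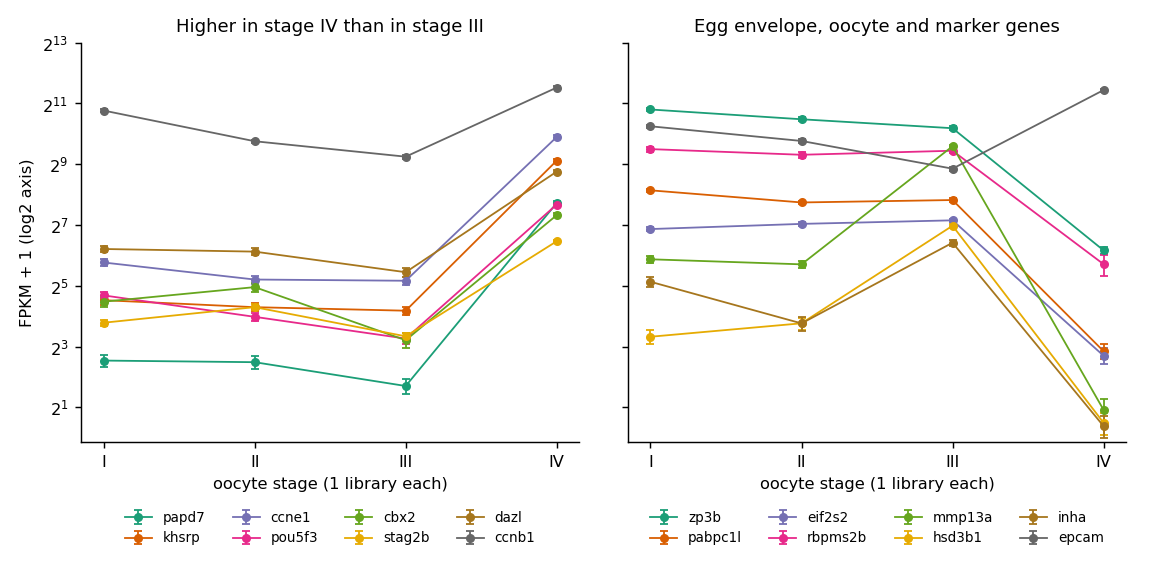
FPKM + 1 on a log2 axis in the 4 staged libraries for 8 genes higher in stage IV (left) and for 8 genes of the egg envelope, translation, the Balbiani body and marker lists (right), with bars for the deposited bounds. zp3b, pabpc1l, eif2s2 and rbpms2b vary less from stage I to stage III than between stage III and stage IV, while mmp13a, hsd3b1 and inha are highest in stage III and epcam is highest in stage IV.

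Among the chromatin lists, those of H3K4 and H3K36 writers, of remodelers and of histones with their chaperones lay above the median of all loci. Writers of histone H3K4 and H3K36 methylation were higher in 9 of 29 cases and lower in 7, with a median of 0.25. setd2, the H3K36 trimethylase, had 156 FPKM in stage IV and 25.7 FPKM in stage III, whsc1 had 128 FPKM in stage IV and 12.5 FPKM in stage III, and one locus of kmt2ba had 58.1 FPKM in stage IV and 9.28 FPKM in stage III. The lowest were cxxc1, with 3.20 FPKM in stage IV and 29.7 FPKM in stage III, and smyd3, with 1.63 FPKM in stage IV and 14.7 FPKM in stage III. Of 46 remodelers 16 were higher and 9 lower, led by chd4a with 258 FPKM in stage IV and 35.9 FPKM in stage III, smarcb1a with 195 FPKM in stage IV and 27.0 FPKM in stage III, and smarca5 with 180 FPKM in stage IV and 42.4 FPKM in stage III. Within it, 8 of 15 SMARC genes were higher and 3 lower.

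Other groups of chromatin genes were mixed. The maintenance DNA methyltransferase dnmt1 had 1095 FPKM in stage IV and 386 FPKM in stage III. Of 37 polycomb genes 7 were higher and 18 lower, with cbx2 at 159 FPKM in stage IV and 8.26 FPKM in stage III, 19.3-fold apart, and phc2a at 15.2 FPKM in stage IV and 96.4 FPKM in stage III. phc2b, one of the most abundant loci, had 6363 FPKM in stage IV and 5415 FPKM in stage III. Acetylation genes were higher in 9 and lower in 13 of 34 cases, with ep300b at 29.9 FPKM in stage IV and 3.55 FPKM in stage III and hat1 at 1.70 FPKM in stage IV and 55.3 FPKM in stage III. Deacetylases and corepressors were higher in 12 and lower in 12 of 37 cases, with mta2 at 365 FPKM in stage IV and 96.3 FPKM in stage III. Demethylases were higher in 3 and lower in 9 of 24 cases, with phf2 at 10.1 FPKM in stage IV and 1.35 FPKM in stage III, and DNA methylation genes were higher in 4 and lower in 7 of 20 cases. None of these 5 lists kept 1 direction relative to all loci under each alternative.

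Among histones and their chaperones 14 of 43 were higher and 12 lower. Their median of 0.19 lay above that of all loci under each alternative, by as little as 0.051 with no filter. The histone variant h2afva had 1037 FPKM in stage IV and 182 FPKM in stage III, one of the loci of h3f3a had 2152 FPKM in stage IV and 674 FPKM in stage III, and the histone mRNA binding protein slbp had 733 FPKM in stage IV and 256 FPKM in stage III. The linker histones h1f0, with 0.260 FPKM in stage IV and 24.8 FPKM in stage III, and h1fx, with 0.800 FPKM in stage IV and 18.6 FPKM in stage III, were lower. The chaperone asf1ba has 2 nearby loci on chromosome 3 that went opposite ways: one had 10.7 FPKM in stage IV and 0.0828 FPKM in stage III, and the other was listed at 0 in stage IV with 7.18 FPKM in stage III. The table also counts several copies of H2AFY, so the list is larger than the family it stands for.

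Genes that license and fire replication origins, which the egg stores for the fast cycles of the embryo, had a median of 0.15, above that of all loci, with 15 of 58 higher and 19 lower. The licensing factor cdc6 had 713 FPKM in stage IV (bounds 701 to 725) and 82.1 FPKM in stage III (bounds 78.1 to 86.2), 8.68-fold apart. orc6 had 441 FPKM in stage IV and 76.2 FPKM in stage III, cdt1 had 275 FPKM in stage IV and 80.4 FPKM in stage III, and DBF4B, which activates the kinase Cdc7, had 66.3 FPKM in stage IV and 10.5 FPKM in stage III. Yet of the 6 genes with an orc symbol 2 were higher and 3 lower. Their median of -1.24 lay below that of all loci under each alternative. Subunits of the replicative helicase were not alike. mcm5 had 7.26 FPKM in stage IV and 128 FPKM in stage III, mcm3l had 5.13 FPKM in stage IV and 127 FPKM in stage III, and mcm4 had 16.7 FPKM in stage IV and 86.4 FPKM in stage III, while mcm7 had 493 FPKM in stage IV and 289 FPKM in stage III and mcm6l had 197 FPKM in stage IV and 163 FPKM in stage III.

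Splicing factors were the largest group above the median of all loci under each alternative. Of 124 measured 49 were higher, 21 lower and 54 between, with a median of 0.64. The 129 found summed to 23126 FPKM in stage IV and 9069 FPKM in stage III. Of 14 SR proteins 10 were higher and none lower, of 20 hnRNP genes 13 were higher and 1 lower, of 18 snRNP genes 9 were higher and none lower, and of 9 SF3 genes 5 were higher and 1 lower. srsf7a had 919 FPKM in stage IV and 127 FPKM in stage III, 7.21-fold apart, and snrpa had 575 FPKM in stage IV and 99.0 FPKM in stage III. The RBM genes, a set named for an RNA binding motif, did not share this: 6 of 40 were higher and 16 lower, close to the shares of all loci, with rbm25 at 157 FPKM in stage IV and 27.7 FPKM in stage III and rbm5 at 0.446 FPKM in stage IV and 22.3 FPKM in stage III. Genes of RNA polymerase II, TFIID and Mediator were higher in 22 (25.6%) and lower in 33 (38.4%) of 86 cases, with no stable side of the median of all loci.

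The machinery that makes protein lay below the median of all loci under each alternative. Of 83 cytosolic ribosomal protein genes 69 were lower, 14 lay between and none was higher. Their median was -1.44, with an interquartile range of -1.84 to -1.16. The 84 found summed to 41582 FPKM in stage IV and 95375 FPKM in stage III. In stage I the sum was 94142 FPKM and in stage II 61304 FPKM. The count rests on the scale: under median-of-ratios scaling 21 genes were lower and none was higher. The median was then -0.59, against -0.03 for all loci. Among the 81 that were not 2-fold above their stage II level in stage III, 67 were lower. The most abundant, rps20, had 14003 FPKM in stage IV and 22582 FPKM in stage III, and rpl35a had 65.5 FPKM in stage IV and 736 FPKM in stage III. Of 64 initiation factors 4 were higher and 40 lower, and the median was -1.77. Scaling by the median of ratios gave 13 higher and 30 lower initiation factors. The subunits of eIF2 and its exchange factor were lower in 9 of 10 cases, and eif2s2 had 5.50 FPKM in stage IV (bounds 4.33 to 6.67) and 141 FPKM in stage III (bounds 135 to 148), 25.7-fold lower. Of 24 eIF4 genes, 4 were higher (16.7%) and 12 lower (50.0%), near the shares of all loci. Among the higher were the helicase eif4a1a, with 786 FPKM in stage IV and 259 FPKM in stage III, and eif4e3, with 161 FPKM in stage IV and 69.1 FPKM in stage III.

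Nuclear genes for mitochondria followed. Of 71 mitochondrial ribosomal protein genes 52 were lower and none was higher, with a median of -2.25; mrps33 had 1.44 FPKM in stage IV and 58.5 FPKM in stage III. Of 99 genes of oxidative phosphorylation 68 were lower and none was higher, with a median of -1.60, and the share lower was 29 of 45 in complex I, 6 of 8 in complex III, 15 of 18 in complex IV and 14 of 22 in complex V. Median-of-ratios scaling gave 6 higher and 43 lower mitochondrial ribosomal protein genes, and 9 higher and 47 lower oxidative phosphorylation genes. cox6b1 had 0.329 FPKM in stage IV and 39.4 FPKM in stage III, but also 7.53 FPKM in stage I and 9.20 FPKM in stage II. The 13 mRNAs that the mitochondrial genome encodes all lay between the rules, with a median of -0.52 on the FPKM scale that became positive under median-of-ratios scaling. mt-atp8, the most abundant locus of both libraries, had 24621 FPKM in stage IV and 24617 FPKM in stage III, and mt-cyb had 2597 FPKM in stage IV and 4524 FPKM in stage III.

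Protein turnover and folding genes were also low. Of 54 proteasome genes 2 were higher and 38 lower, and the median was -2.08. With median-of-ratios scaling 5 proteasome genes were higher and 29 lower. Subunits of the core were lower in 17 of 21 cases. Genes with a psmc symbol, which are the ATPases of its cap and also psmc3ip, were lower in 7 of 8. Among them psmc5 had 6.51 FPKM in stage IV and 107 FPKM in stage III. The immune forms psmb8 and psmb10 were listed at 0 in stage IV with 26.7 and 13.6 FPKM in stage III, and each overlaps other loci. The 2 higher genes both encode activators of the core outside the standard cap: psme3 had 399 FPKM in stage IV and 148 FPKM in stage III, and psme4b had 65.0 FPKM in stage IV and 11.0 FPKM in stage III. Of 86 chaperones 12 were higher and 48 lower, and the median was -1.47. That scaling gave 20 higher and 36 lower chaperones. All 8 subunits of the CCT chaperonin, which folds actin and tubulin, were lower, from cct6a at 17.6 FPKM in stage IV and 179 FPKM in stage III to cct8 at 87.9 FPKM in stage IV and 184 FPKM in stage III. hspa5, the chaperone of the endoplasmic reticulum, had 22.4 FPKM in stage IV and 460 FPKM in stage III. The DNAJ cochaperones, with 9 of 44 higher and 18 lower, were near the shares of all loci, and dnajc5ga had 392 FPKM in stage IV and 38.9 FPKM in stage III.

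**Figure D5:**
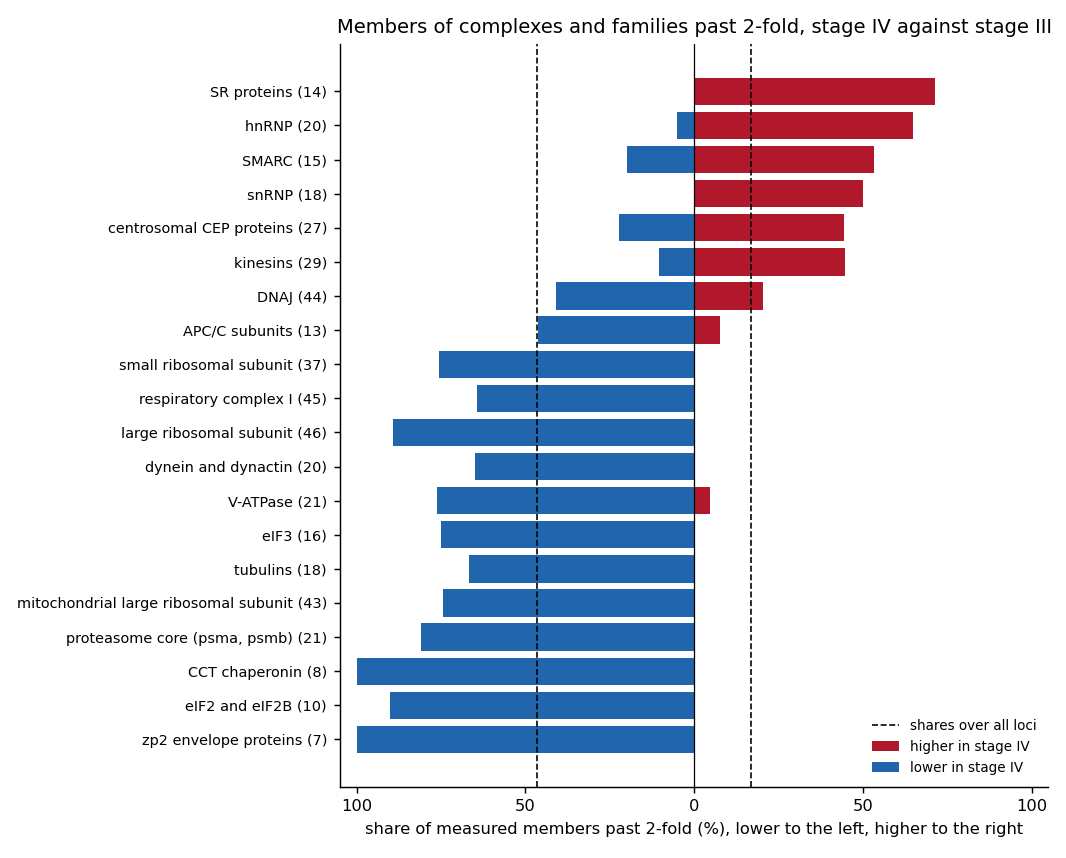
Share of measured members past the 2-fold rule, lower in stage IV to the left and higher to the right, for 20 complexes and families ordered by median difference, with the number measured in brackets and dashed lines at the shares over all loci (46.5% lower, 17.0% higher). The CCT chaperonin and the zp2 genes are lower throughout, and SR proteins and snRNP genes have higher members and no lower ones.

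In the cytoskeleton, the list of kinesin and dynein motors and the list of centrosome and tubulin genes kept no side of the median of all loci, but families within them did. Kinesins and CEP genes lay above it, and dynein, dynactin and tubulin genes lay below it. Of 29 kinesins 13 were higher and 3 lower, with a median of 0.77, and of 20 dynein and dynactin genes none was higher and 13 were lower, with a median of -1.63. kifc3 had 359 FPKM in stage IV and 38.0 FPKM in stage III, kif11, the motor that separates spindle poles, had 506 FPKM in stage IV and 93.7 FPKM in stage III, and kif20a, of cytokinesis, had 181 FPKM in stage IV and 29.3 FPKM in stage III. dctn2 had 1.51 FPKM in stage IV and 41.0 FPKM in stage III, and dynll1 had 8.64 FPKM in stage IV and 115 FPKM in stage III. Of 27 CEP genes 12 were higher and 6 lower, and of 18 tubulins none was higher and 12 were lower. The 8 HAUS genes, of a complex that seeds spindle microtubules, had none higher and 3 lower. Yet the HAUS median of 0.0055 lay above that of all loci under each alternative, by as little as 0.068 with no filter. The centriole gene stil had 331 FPKM in stage IV (bounds 325 to 336) and 18.8 FPKM in stage III (bounds 17.5 to 20.2), 17.6-fold apart, and the pericentriolar scaffold pcnt had 98.0 FPKM in stage IV and 6.09 FPKM in stage III. nin had 167 FPKM in stage IV and 13.7 FPKM in stage III.

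Actin genes were mostly lower on the FPKM scale, with 58 of 93 lower, 8 higher and a median of -1.42, below that of all loci under each alternative. After median-of-ratios scaling 20 were higher and 36 lower. arpc1b, of the complex that branches filaments, had 0.247 FPKM in stage IV and 89.4 FPKM in stage III, and 11 of 14 genes of that complex were lower. actb1 had 219 FPKM in stage IV and 1953 FPKM in stage III. Smooth muscle actin, acta2, which is also on the marker list of stroma, had 0.703 FPKM in stage IV and 81.1 FPKM in stage III. Among the higher members, fmn2b, a formin needed for spindle positioning in mouse oocytes, had 158 FPKM in stage IV and 42.1 FPKM in stage III, and flii, of the gelsolin family, had 189 FPKM in stage IV and 31.4 FPKM in stage III.

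Genes for receiving signals of the follicle had 10 of 32 higher and 14 lower, with no stable direction. Among the highest were genes with activin receptor symbols: besides ACVR2B (1 of 2), acvr2b had 70.9 FPKM in stage IV and 10.5 FPKM in stage III, and acvr1l had 97.4 FPKM in stage IV and 22.2 FPKM in stage III. Of 13 measured BMP and activin receptor genes 6 were higher and 6 lower. The type 2 BMP receptors bmpr2a, with 0.0366 FPKM in stage IV and 7.10 FPKM in stage III, and bmpr2b, listed at 0 in stage IV with 5.36 FPKM in stage III, were lower. Inhibitory G proteins parted, with gnai2b at 130 FPKM in stage IV and 22.5 FPKM in stage III and gnai1 listed at 0 in stage IV with 15.3 FPKM in stage III. Of 8 membrane progestin receptor genes found 7 were under the mean, and the other one, paqr5a, was 2.49-fold lower in stage IV. pgrmc2, a membrane component that binds progesterone in mammals, had 249 FPKM in stage IV and 60.7 FPKM in stage III. The nuclear progestin receptor pgr, which is also a marker of follicle cells, had 0.321 FPKM in stage IV and 41.6 FPKM in stage III.

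Of 32 yolk uptake genes 5 were higher (15.6%) and 15 lower (46.9%), near the shares of all loci. The 38 found summed to 2861 FPKM in stage IV and 2745 FPKM in stage III. The vitellogenin receptor family member vldlr had 13.6 FPKM in stage IV and 242 FPKM in stage III, and the endocytic adaptor dab2 had 10.9 FPKM in stage IV and 392 FPKM in stage III. Among its higher members, npc2, a cholesterol carrier of the lysosome, had 2046 FPKM in stage IV and 655 FPKM in stage III. Of 40 lysosomal genes 5 were higher and 24 lower, and the median was -1.31, while 16 of 21 proton pump genes were lower, such as atp6v0ca with 27.8 FPKM in stage IV and 462 FPKM in stage III. Cathepsins, which cleave yolk proteins as the oocyte matures, were higher in 3 and lower in 5 of 14 cases. ctssb.1 had 2163 FPKM in stage IV and 722 FPKM in stage III, ctsc had 262 FPKM in stage IV and 94.1 FPKM in stage III, and ctsk had 1.04 FPKM in stage IV and 47.4 FPKM in stage III. Of 31 genes of water and ion transport 11 were higher (35.5%) and 13 lower (41.9%), with no stable side of the median of all loci. All 5 measured aquaporins were lower, at 2.63 FPKM in stage IV and 20.6 FPKM in stage III when summed over the 13 found. Of the 13, 1 had at least 1 FPKM in stage IV and 6 in stage III, so the mean was met mostly through stage III. The sodium pump subunits atp1b3b, with 380 FPKM in stage IV and 129 FPKM in stage III, and atp1b1a, with 1.71 FPKM in stage IV and 120 FPKM in stage III, lay apart, as did the anion exchangers slc4a2b, with 177 FPKM in stage IV and 27.6 FPKM in stage III, and slc4a2a, with 1.09 FPKM in stage IV and 20.0 FPKM in stage III.

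In the last lists the share of lower members is set against the 46.5% of all loci. Nuclear pore and import genes were higher in 14 and lower in 23 of 64 cases (35.9%), ubiquitin conjugation and F-box genes were higher in 12 and lower in 40 of 92 (43.5%), deubiquitinases were higher in 8 and lower in 16 of 37 (43.2%), and Rab genes were higher in 5 and lower in 29 of 58 (50.0%). The share of higher Rab genes was 8.62%, against 17.0% of all loci. Their median of -0.99 lay below that of all loci under each alternative. With median-of-ratios scaling the gap was small, at -0.064 against -0.033.

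Few loci went from near absence to a clear level. Of the 13764 compared, 26 had under 1 FPKM in stage III and at least 10 FPKM in stage IV, with bounds apart. They include ctnnd1, p120 catenin, at 15.3 FPKM in stage IV and 0.586 FPKM in stage III, the nectin pvrl4, at 12.4 FPKM in stage IV and 0.548 FPKM in stage III, and the centrosomal gene CEP250, at 10.0 FPKM in stage IV and 0.953 FPKM in stage III. These 3 were chosen after their values were seen. Of the 26, 10 had at least 10 FPKM in stage II. The reverse, under 1 FPKM in stage IV and at least 10 FPKM in stage III with bounds apart, held for 539 loci. Of these, 104 were listed at 0 in stage IV, 22 had at least 100 FPKM in stage III and 235 had at least 10 FPKM in stage II. After median-of-ratios scaling, 59 loci went up in this way and 313 went down.

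The difference varied with the level and the span of the locus. In 5 equal bins of the mean level of the 2 libraries compared, values that also make up the difference, the share of lower loci from lowest to highest was 55.4%, 57.6%, 52.3%, 39.9% and 27.4%, and the share of higher loci was 6.47%, 9.19%, 12.8%, 20.9% and 35.9%. In 5 equal bins of genomic span, from the shortest to the longest, the share of lower loci was 55.8%, 49.1%, 45.6%, 42.7% and 39.2%, and the share of higher loci was 11.7%, 15.0%, 18.6%, 19.0% and 21.0%. In 5 bins of the stage II level, a library outside the comparison, from lowest to highest, the share of lower loci was 51.6%, 46.7%, 43.1%, 44.3% and 46.8%. Among the 25 chromosomes the share of lower loci ran from 41.8% to 51.3% and that of higher loci from 14.6% to 19.7%. The median difference was lowest on chromosome 24, at -1.03, and highest on chromosome 5, at -0.57.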

How the data were processed

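The authors deposited 1 table of FPKM values per library, with a lower and an upper bound and a status per locus, per the file headers. The submitters' processing notes give danRer7 as the build and list, with no roles stated, Bismark, Bowtie2 2.2.2, STAR 2.5.3a and Trim Galore, and the quantification program, its use of strand and any read counts are not given in the sources used here. Libraries kept strand, per the labels' protocols. Values of the 2 libraries were joined on symbol and locus, 1 was added to each start so that positions count from 1, and differences of log2(FPKM + 1) were taken at a mean of at least 1 FPKM, with Python 3.11.15, pandas 2.3.3 and NumPy 2.4.6. The pseudocount of 1 understates changes of low genes. A locus was called at a difference of 1. Fragment equivalents are (2 FPKM divided by the distance from the upper bound) squared, and they cover counting error only. Of the 27564 symbols, 57.6% occur in a current name table, and symbols are printed as deposited. The difference, the filter on the mean and the 2-fold rule were checked on values simulated from the stage III library. That check did not cover the joining step or the comparison of bounds.

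The loci named first are the 15 with the largest difference in each direction among loci with bounds apart, at least 10 FPKM in the higher library and a settled name, which passed over 3 provisional names among 1980 higher loci and 7 among 3746 lower ones. In each list the 3 highest and 3 lowest members were eligible, and members of complexes or pathways described whole were added, some of them after their values were seen. Members and lists were chosen with earlier results of these data known. Some lists were filled by name pattern and take in a few other genes, such as psmc3ip among the proteasome genes and mylipa among the actin genes. Alternatives were the pseudocount, the filter, the scale, a 4-fold rule and leaving out loci. Promoter and protein properties were planned and are not analysed here, and no sequence is printed. Some genes that the naming rule covers are not reported here.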

Additional observations from a re-analysis of the deposited data

How the results depend on the processing

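No paired analysis was possible because each stage has 1 library. With 1 library a side, the values below are descriptions. The count of lower loci, 6401, was 4096 with a pseudocount of 5, 2875 with a mean of at least 10 FPKM and 3373 with a 4-fold rule, and the count of higher loci, 2346, was 4133 with median-of-ratios scaling and 715 with a 4-fold rule. The median difference was -0.97 and -0.47 with pseudocounts of 0.1 and 5, -0.063 with no filter, -0.29 with a mean of at least 10 FPKM, -0.033 with median-of-ratios scaling and -0.62 without the loci whose stage III level was 2-fold or more above stage II. The next counts, in both directions, are of loci with bounds apart. Loci under 1 FPKM in stage III and at least 10 in stage IV numbered 7 with a mean of at least 10 FPKM and 59 after scaling. Loci under 1 FPKM in stage IV and at least 10 in stage III numbered 208 with that filter, 313 after scaling and 237 without the loci that stood higher in stage III. Of the 44 list medians, 25 kept their sign under scaling and 33 with a mean of at least 10 FPKM. Among medians past the 2-fold rule, that of epithelial keratins and junctions changed sign, to 0.87 without the loci that stood higher in stage III, where 3 members were left. All 30 loci named first kept their sign under each alternative that held them. They were chosen for the size of their difference, so this outcome was largely set by the choice. Leaving out the loci that stood higher in stage III held only 15 of the 30. Leaving out the marker genes was chosen after seeing the data. Apart from the construction of each alternative, the cause was not tested. Low FPKM rest on few fragments, so values under 1 FPKM limit every fold against them.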

Other observations

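Groups of genes outside the comparisons above were counted after their values had been seen. Of 25 measured glycolysis genes 22 were lower in stage IV and none was higher, with a median difference of -2.04: gapdhs had 2.62 FPKM in stage IV and 133 FPKM in stage III, and hk2, hexokinase 2, had 1.00 FPKM in stage IV and 53.6 FPKM in stage III. Of 34 aminoacyl-tRNA synthetases 23 were lower and 1 higher, with gars at 1.88 FPKM in stage IV and 73.8 FPKM in stage III. Of 45 antioxidant enzymes 1 was higher (2.22%, against 17.0% of all loci) and 20 were lower (44.4%, near the 46.5% of all loci). Thioredoxin, txn, had 0.351 FPKM in stage IV and 49.2 FPKM in stage III. Protein phosphatase genes were higher in 14 and lower in 15 of 59 cases, with a median of 0.10, and subunits of phosphatase 4 were the highest: ppp4r2b had 334 FPKM in stage IV and 52.4 FPKM in stage III, and ppp4cb had 456 FPKM in stage IV and 102 FPKM in stage III. DNA repair genes were higher in 20 (23.8%) and lower in 33 (39.3%) of 84 cases. DEAD and DEAH box helicases were higher in 8 (17.0%) and lower in 17 (36.2%) of 47. Zinc finger genes were higher in 13 (11.6%) and lower in 48 (42.9%) of 112, and solute carriers in 33 (14.5%) and 104 (45.8%) of 227. Over all loci 17.0% were higher and 46.5% lower, and the shares lower of the last 2 groups were near that. The groups of this paragraph were not taken through the alternatives.

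Of 995 pairs of genes whose symbols differ in a final a or b, and which are mostly copies from the genome duplication of teleost fish, 222 had both members lower in stage IV, 66 had both higher and 97 had members past the 2-fold rule in opposite directions, 93 of them with bounds apart in both. Over all loci compared, 46.5% were lower and 17.0% were higher. The counts that unrelated genes would give were not worked out, so no trait of the pairs is read from these counts. The tropomyosins parted most, with tpm4a at 0.907 FPKM in stage IV and 59.3 FPKM in stage III and tpm4b at 53.6 FPKM in stage IV and 2.47 FPKM in stage III. The hypoxia factors hif1aa and hif1ab, the claudins cldn7a and cldn7b, and the stathmins stmn1a and stmn1b were also opposed. How reads of similar copies were divided is not given, and its part in these values was not tested.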
